A study of Mus musculus with 16 samples.

Results

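Olfr481, Olfr309, Olfr110, Olfr536 and Olfr1093 are 5 odorant receptor genes of the mouse whose array signal was 22.5- to 55.8-fold higher in GFP+ than in GFP- cells sorted from olfactory mucosa, in mice given an odor and in mice given filtered air alike. They were chosen by this very measurement, the GFP+ minus GFP- difference of log2 signal, as class II receptors in which it was large under both stimuli. Each is measured by 1 probe set, and together they are 5 of 1080 odorant receptor probe sets and of 22206 probe sets tested. Because the size of the 2 sort differences chose these genes, those differences are described here without a test. The comparisons of odor with vehicle are tested. They are not fully free of the choice, which asked for a large difference under both stimuli.

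All animals, those of the vehicle group included, carried S100a5-tauGFP, a reporter tied to S100a5, a gene for a calcium-binding protein whose transcript depends on neuronal activity. The 24 mice, of both sexes and aged 7 to 12 weeks, stayed alone in chambers for 40 h with air supplied at 3.1 L/min, and from hour 26 they received 10 s pulses every 20 min of 1-pentanethiol, a strong-smelling thiol, or of filtered air as vehicle. The mucosa of 3 mice was pooled, which gave 4 pools per stimulus, and fluorescence-activated cell sorting split each pool into a GFP+ and a GFP- sample. The 16 samples, 4 in each of the groups vehicle GFP-, vehicle GFP+, odor GFP- and odor GFP+, were hybridised to Clariom S arrays. The design text of the series names bourgeonal, another odorant, in place of 1-pentanethiol; the name on the samples was followed. A sample thus stands for a pool of 3 animals, and whether the reporter was heterozygous or homozygous was not stated.

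Odorant receptors are G protein-coupled receptors on the cilia of olfactory sensory neurons, and a mature neuron expresses mainly a single receptor gene from a single allele. An odorant that binds the receptor activates the G protein subunit encoded by Gnal, the adenylyl cyclase Adcy3 and a cyclic nucleotide-gated channel, and calcium entry then opens the chloride channel Ano2. Class I receptors resemble those of fish, and class II receptors, to which these 5 belong, form the larger group of land vertebrates. A receptor transcript therefore serves as a label of the neurons that carry the receptor, and the reporter as a label of neurons that were recently active.

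The 5 genes lie on 3 chromosomes and belong to 5 receptor families of the supplied RefSeq annotation. Olfr110 (family MOR249) lies on chromosome 17, Olfr1093 (MOR179) on chromosome 2, and Olfr309 (MOR251), Olfr481 (MOR204) and Olfr536 (MOR252) on chromosome 7. Promoter windows of 300 bases, from 250 bases before the start of the gene model to 50 bases from the start on, were found for 4 of the 5 in RefSeq (GRCm38.p6). The windows of Olfr110, Olfr536 and Olfr1093 are shown because these genes share the enrichment and their gene models, of 7207, 6466 and 4247 bases, begin before the coding sequence. They are, 5′ to 3′ on the strand of the gene, chr17:37492218-37492517 (plus strand), chr7:140507269-140507568 (minus strand) and chr2:86782295-86782594 (plus strand), with capitals for matches to the motif CCCNNGGG.

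Olfr110: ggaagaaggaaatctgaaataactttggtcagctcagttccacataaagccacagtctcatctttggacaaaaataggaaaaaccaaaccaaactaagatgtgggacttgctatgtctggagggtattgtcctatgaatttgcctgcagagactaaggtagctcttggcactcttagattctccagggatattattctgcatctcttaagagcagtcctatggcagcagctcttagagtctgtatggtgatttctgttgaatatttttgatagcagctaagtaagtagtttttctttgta

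Olfr536: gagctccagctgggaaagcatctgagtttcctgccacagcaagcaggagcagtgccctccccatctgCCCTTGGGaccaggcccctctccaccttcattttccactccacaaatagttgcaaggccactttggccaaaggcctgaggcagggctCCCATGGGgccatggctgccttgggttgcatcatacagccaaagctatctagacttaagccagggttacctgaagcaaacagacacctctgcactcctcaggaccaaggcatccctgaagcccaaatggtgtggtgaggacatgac

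Olfr1093: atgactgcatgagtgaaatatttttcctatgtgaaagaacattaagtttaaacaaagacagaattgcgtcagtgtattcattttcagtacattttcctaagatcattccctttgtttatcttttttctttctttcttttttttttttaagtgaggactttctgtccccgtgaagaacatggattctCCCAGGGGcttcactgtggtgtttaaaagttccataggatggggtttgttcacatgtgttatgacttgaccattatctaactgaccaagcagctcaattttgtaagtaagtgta

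CCCNNGGG is the core of the sequence bound by EBF (Olf1/Ebf) factors, which are expressed in olfactory neurons. The window of Olfr536 held 2 matches, CCCTTGGG from position -183 and CCCATGGG from position -96 relative to the start of the gene, and that of Olfr1093 held 1, CCCAGGGG from position -64. None was in the window of Olfr110, nor in that of Olfr481. Among windows of the same length, searched on both strands, 13.7% of 32851 promoters and 3.07% of 944 receptor promoters held this motif. TAATTA, a homeodomain motif, and TATAAA, the letters of the TATA box, each had 1 match in the window of Olfr481 and none in the other 3 windows. Of receptor promoters, 18.6% and 41.2% held a match. TATAAA lay on the opposite strand, read as TTTATA from position -111. The gene model of Olfr481 starts at an ATG and its length of 939 bases is a multiple of 3. The last 50 bases of its window are therefore coding sequence, and it is not shown. Positions in this window count from the ATG, and the start of transcription was not located. The window of Olfr536 had a GC content of 56.3%, higher than 99.7% of the receptor windows, whose median was 35.0%. That of Olfr110 had 39.7%, that of Olfr1093 35.0% and that of Olfr481 33.0%. How many of the 944 receptor gene models begin at the coding sequence, as that of Olfr481 does, was not counted. The receptor shares and the GC median thus mix windows of both kinds. A match describes letters in a window and says nothing of binding.

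Signal is given as the deposited log2 value of the probe set, and a difference of 1 on this scale is a 2-fold ratio of signal. Negative control entries of the array had a median between 5.99 and 6.48 on 15 arrays. On the GFP+ array of vehicle replicate 2, which stood apart, it was 7.28. What these entries match was not examined, and some of them read high. Signals of Olfr309 in GFP+ cells, from 14.76 to 15.44, exceeded 99.1% to 99.5% of the entries rather than all. A place among them thus describes a low signal and does not measure nonspecific signal. Medians over all probe sets lay between 7.38 and 7.45 in GFP+ and between 7.71 and 7.78 in GFP- cells. GFP+ signal of S100a5 itself exceeded GFP- signal by 0.87 ± 0.12 with vehicle and 0.99 ± 0.12 with odor (± SE, limma, adjusted p = 3.51e-05 and 7.79e-06), while Omp, the marker of mature olfactory neurons, differed by 0.05 ± 0.10 and 0.03 ± 0.10. Omp signal, at 18.14 to 18.41, lay near the highest values of the arrays (18.71 to 18.85), which limits what its difference can show. In sorted bulk RNA, a larger share of neurons carrying a receptor and more receptor RNA per neuron cannot be told apart.

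**Figure D1:**
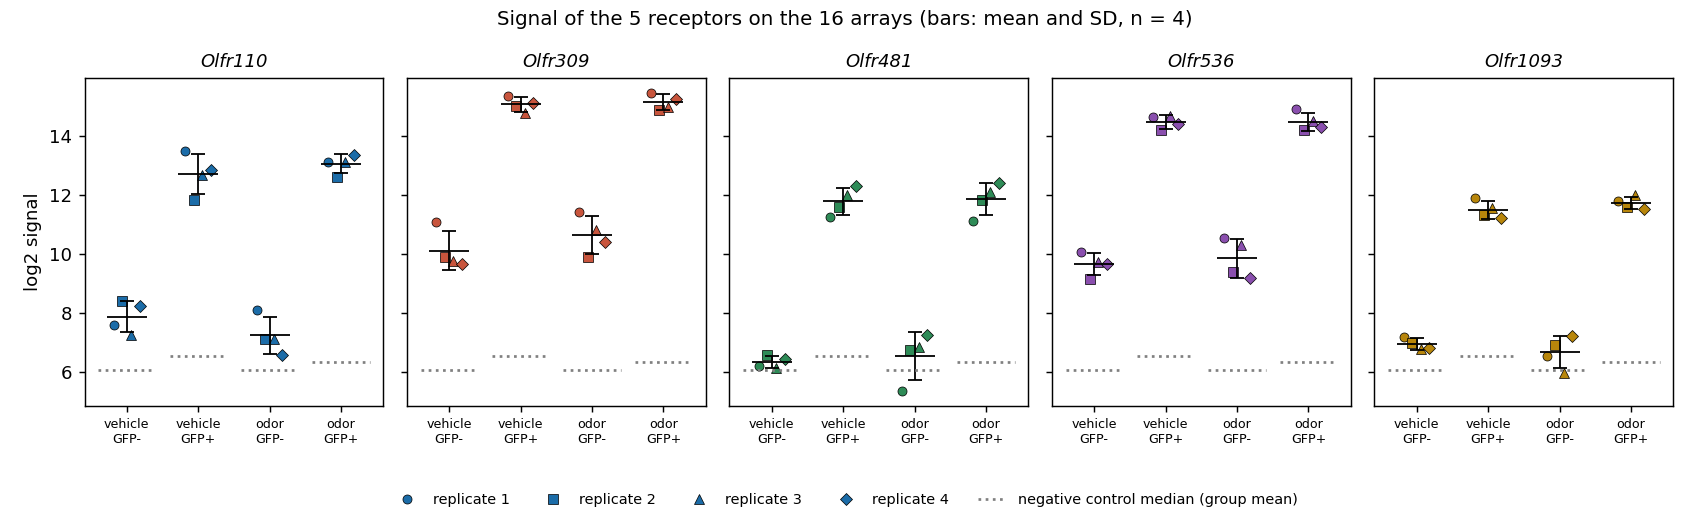
Log2 signal of the 5 receptors on the 16 arrays by group, with 1 marker shape per replicate number, bars for the mean and SD of 4 arrays, and dotted lines for the mean negative control median of the group. In each receptor the GFP+ arrays lie above the GFP- arrays under both stimuli, and GFP- signals of Olfr481 and Olfr1093 lie close to the dotted line.

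Olfr481 had a signal above 94.8% to 98.3% of the negative control entries in GFP+ cells, and in GFP- cells one among these entries. In replicates 1 to 4 of the vehicle pools its signal was 6.22, 6.59, 6.14 and 6.43 in GFP- cells and 11.23, 11.59, 12.00 and 12.29 in GFP+ cells. In the odor pools it was 5.37, 6.75, 6.83 and 7.26 in GFP- cells and 11.12, 11.81, 12.08 and 12.39 in GFP+ cells. The GFP+ arrays of both stimuli thus covered nearly the same range, and the lowest of them lay far above the highest GFP- array. The difference was 5.43 ± 0.34 (SE, n = 4 arrays per group; 43.1-fold) in the vehicle and 5.30 ± 0.34 (39.3-fold) in the odor pools, places 1 and 2 among receptors. In GFP- cells the signal exceeded between 33.9% and 73.3% of the negative control entries, so that little of it stood above the level of these entries.

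Olfr309 differed by 4.95 ± 0.31 (30.9-fold) in the vehicle pools and by 4.49 ± 0.31 (22.5-fold) in the odor pools, places 3 and 8 among receptors. Its vehicle signals in replicates 1 to 4 were 11.09, 9.91, 9.74 and 9.67 in GFP- cells and 15.35, 15.00, 14.76 and 15.10 in GFP+ cells. Its odor signals were 11.43, 9.89, 10.81 and 10.40 in GFP- cells and 15.44, 14.86, 14.95 and 15.23 in GFP+ cells. Replicate 1 was the highest array of each of the 4 groups. GFP- signal of this receptor was well within the measured range and exceeded 93.3% to 97.4% of the negative control entries.

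Olfr110 differed by 4.83 ± 0.35 (28.3-fold) in the vehicle pools, place 4 among receptors, and by 5.80 ± 0.35 (55.8-fold) in the odor pools, place 1. Its vehicle signals in replicates 1 to 4 were 7.61, 8.39, 7.26 and 8.22 in GFP- cells and 13.47, 11.83, 12.66 and 12.83 in GFP+ cells. Its odor signals were 8.11, 7.14, 7.13 and 6.58 in GFP- cells and 13.12, 12.59, 13.11 and 13.35 in GFP+ cells. The lowest GFP+ value was that of vehicle replicate 2, the array with the high negative controls, and without that array the vehicle difference was 5.11. The GFP- signals exceeded 60.9% to 87.1% of the negative control entries.

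Olfr536 differed by 4.81 ± 0.27 (28.1-fold) in the vehicle and by 4.63 ± 0.27 (24.7-fold) in the odor pools, places 5 and 6 among receptors. Its vehicle signals in replicates 1 to 4 were 10.08, 9.15, 9.72 and 9.66 in GFP- cells and 14.64, 14.18, 14.65 and 14.38 in GFP+ cells. Its odor signals were 10.52, 9.38, 10.29 and 9.18 in GFP- cells and 14.89, 14.18, 14.51 and 14.30 in GFP+ cells. GFP+ arrays spread over 0.47 in the vehicle and 0.70 in the odor group, and GFP- arrays over 0.93 and 1.34. The GFP- signals exceeded 91.3% to 96.0% of the negative control entries.

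Olfr1093 differed by 4.54 ± 0.22 (23.3-fold) in the vehicle pools, place 6 among receptors, and by 5.06 ± 0.22 (33.3-fold) in the odor pools, place 3. Its vehicle signals in replicates 1 to 4 were 7.20, 7.00, 6.80 and 6.80 in GFP- cells and 11.88, 11.32, 11.56 and 11.21 in GFP+ cells. Its odor signals were 6.54, 6.93, 5.97 and 7.22 in GFP- cells and 11.78, 11.60, 11.98 and 11.53 in GFP+ cells. Within groups it varied least of the 5, with a pooled SD of 0.34 against a median of 0.46 over all receptors. The pooled SD was 0.43 for Olfr536, 0.50 for Olfr309, 0.55 for Olfr481 and 0.56 for Olfr110. As for Olfr481, GFP- signals of Olfr1093 were near the nonspecific level, above 47.2% to 74.3% of the negative control entries, and fold values are ratios of signal rather than of transcript number.

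In all 5 genes and under both stimuli the lowest GFP+ array exceeded the highest GFP- array, a separation seen in either direction for 23.7% of all probe sets and 54.8% of receptors in the vehicle and 26.8% and 60.7% in the odor pools. Other genes were called by a Benjamini-Hochberg adjusted p under 0.05 in limma, by which 9.34% of all probe sets and 36.9% of receptors were higher in GFP+ cells in the vehicle pools and 11.3% and 36.7% in the odor pools. In either direction 21.1% of all probe sets and 61.4% of receptors were called in the vehicle and 23.3% and 63.9% in the odor pools. Since the sort chose the 5 genes, their own calls carry no information and nothing is read from these shares. With array medians set equal, the calls over all probe sets became 13003 higher of 15011 in the vehicle pools, against 2074 of 4691 without this step, and 13098 higher of 15107 in the odor pools, against 2518 of 5167. It moved the median difference of all probe sets by 0.35 and 0.33, and setting receptor medians equal moved it by -0.23 and -0.06. These shifts are small beside differences of 4.49 or more.

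Within single pools, where GFP+ and GFP- cells come from the same 3 mice, the difference was never below 3.44. Olfr110 spread widest, with 5.86, 3.44, 5.40 and 4.61 in vehicle replicates 1 to 4 and 5.01, 5.46, 5.98 and 6.77 in the odor pools. Olfr1093 kept to between 4.32 and 4.76 in the vehicle pools but reached from 4.31 to 6.01 in the odor pools. Olfr536 ranged from 4.56 to 5.03 and from 4.21 to 5.12, Olfr309 from 4.26 to 5.43 and from 4.02 to 4.97, and Olfr481 from 4.99 to 5.86 and from 5.07 to 5.75. Ranked among the 1080 receptors of its pool, Olfr481 was between places 1 and 6 in all 8 pools. The lowest places of the others were 9 for Olfr536, 11 for Olfr309, 16 for Olfr110, in vehicle replicate 2, and 21 for Olfr1093, in odor replicate 4.

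**Figure D2:**
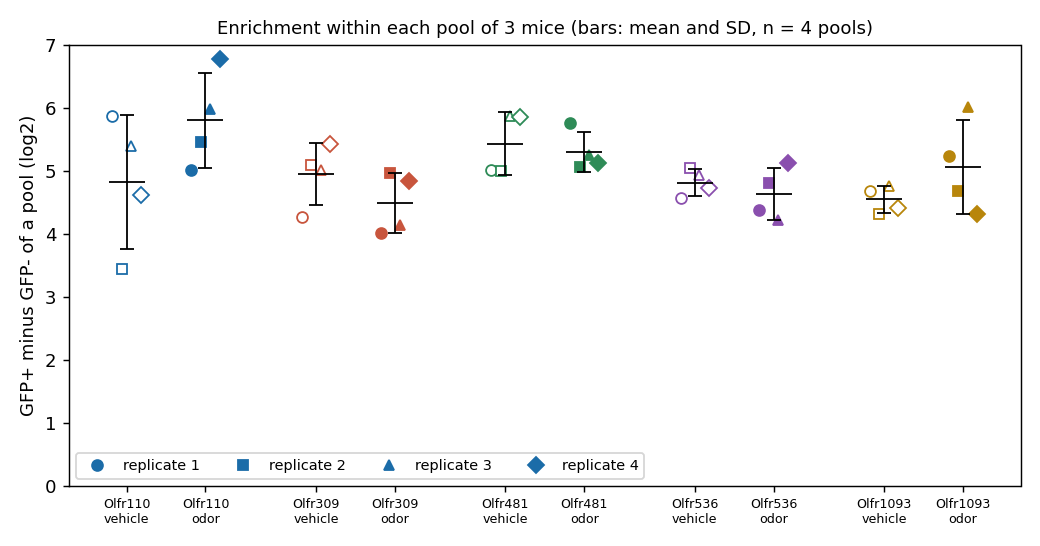
GFP+ minus GFP- log2 signal of each receptor within each pool of 3 mice, open for vehicle and filled for odor pools, with bars for the mean and SD of 4 pools. The differences lie between 3.44 and 6.77, and those of Olfr110 in the vehicle pools are the most spread.

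Ordered by the smaller of their 2 sort differences, the 5 genes are the first 5 class II receptors, with Olfr309 (4.49) the last inside. Olfr613, a class I receptor of family MOR20 and so outside the choice, would rank between Olfr481 and Olfr110, with 5.29 ± 0.39 in the vehicle and 4.86 ± 0.39 in the odor pools. The class II receptors just outside were Olfr1132 (4.00 and 4.22), Olfr981 (4.01 and 3.97), Olfr533 (3.93 and 3.97), Olfr472 (4.14 and 3.82) and Olfr372 (3.71 and 3.76). Of all receptors, 7 were at least 16-fold higher in GFP+ cells under both stimuli, among them the 5, whereas no other gene with a symbol was, and 345 receptors were called higher under both.

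The next question was whether 1-pentanethiol changed the signal of these receptors. In GFP+ cells none of the 5 passed, beside 0.0766% of all probe sets (17) and 0.833% of receptors (9) that did, and none had an unadjusted limma p under 0.05, as 1587 of all probe sets had. Odor minus vehicle was 0.35 for Olfr110 (95% interval -0.38 to 1.08), 0.23 for Olfr1093 (-0.24 to 0.70), 0.07 for Olfr481 (-0.65 to 0.80), 0.07 for Olfr309 (-0.59 to 0.73) and 0.01 for Olfr536 (-0.57 to 0.58). The adjusted p-values in limma ran from 0.864 for Olfr1093 to 1 for Olfr536. The median of the 5 was 0.07, and that of all probe sets 0.01. In each gene the arrays of the odor and vehicle groups overlapped, as they did in all but 2.86% of all probe sets and 3.33% of receptors, so the GFP+ groups, the highest of the 4 in every gene, were not separated beyond their spread.

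In GFP- cells none of the 5 passed either, beside 0.0495% of all probe sets (0.00901% higher, 0.0405% lower) and 0.833% of receptors, all lower, and again none of the 5 had an unadjusted p under 0.05, as 580 of all probe sets had. Olfr110 differed by -0.63 (-1.36 to 0.10, unadjusted p = 0.0863 in limma) and Olfr1093 by -0.28 (-0.75 to 0.18), whereas Olfr309 differed by 0.53 (-0.13 to 1.19), Olfr481 by 0.21 (-0.52 to 0.93) and Olfr536 by 0.19 (-0.38 to 0.76). The adjusted p was 1 for each. The median of the 5 was 0.19, against 0.00 over all probe sets and 0.10 over receptors. The groups overlapped in all 5, whereas they did not in 2.61% of all probe sets and 5.19% of receptors. The intervals reach up to 1.19 for Olfr309 and down to -1.36 for Olfr110.

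The gain, the GFP+ minus GFP- difference in the odor pools minus that in the vehicle pools, is the measure by which the assay finds receptors for an odor. It passed for 14 probe sets, 0.063% of all and 1.3% of receptors, all of them receptors, with gains from 1.52 (Olfr31) to 5.42 (Olfr328). None of the 5 passed, and none had an unadjusted p under 0.05, as 1033 of all probe sets had. Olfr110 gained 0.98 ± 0.49 (-0.05 to 2.01, unadjusted p = 0.062) and Olfr1093 0.51 ± 0.31 (-0.15 to 1.17). The gain was -0.13 ± 0.48 for Olfr481 (-1.16 to 0.89), -0.19 ± 0.38 for Olfr536 (-0.99 to 0.62) and -0.46 ± 0.44 for Olfr309 (-1.39 to 0.47). All 5 had an adjusted p of 0.999 in limma. The interval of Olfr110 takes in the smallest gain that passed, and those of the other 4 end below it. With an array left out, the gain of Olfr110 ranged from 0.69 (without vehicle GFP+ replicate 2) to 1.27 (without odor GFP- replicate 1). The choice of the 5 asked for a large difference under both stimuli, which kept out receptors with a low vehicle value and a large gain. The gain, and the odor differences in GFP+ and GFP- cells that make it up, are thus not fully free of the choice.

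**Figure D3:**
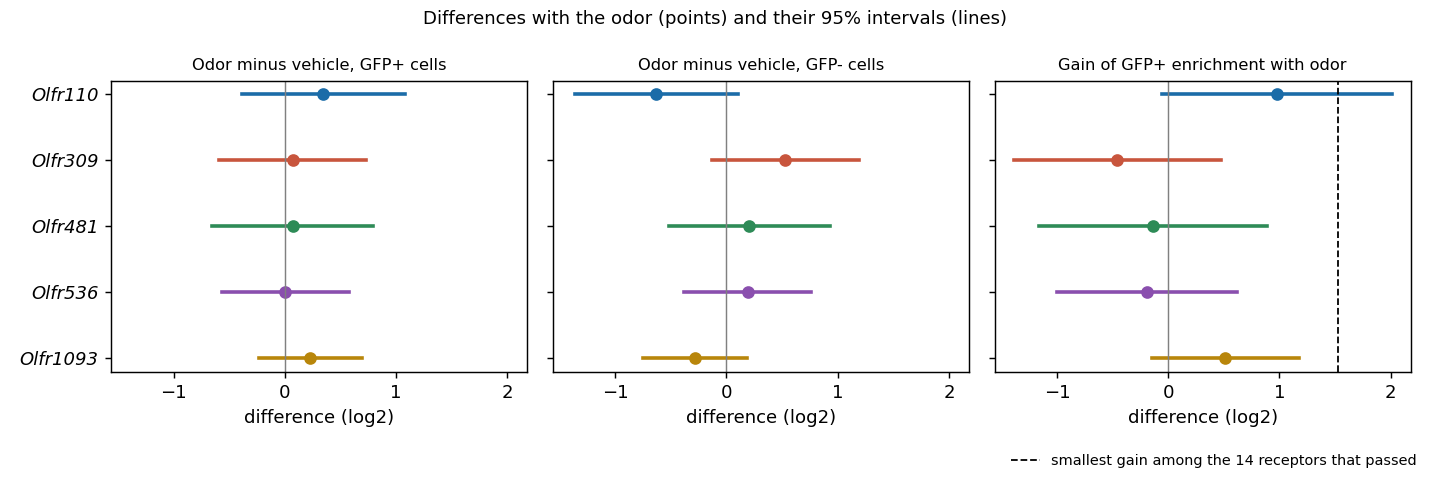
Odor minus vehicle in GFP+ cells, the same in GFP- cells, and the gain of the GFP+ enrichment with odor, in log2 units, as points with 95% intervals from the fit of 4 arrays per group. Every interval includes 0, and the dashed line marks 1.52, the smallest gain among the 14 receptors that passed.

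The chromosomal surroundings, which the choice did not use, were described over the 5 nearest receptor genes with a probe set on each side, in annotation order. In the vehicle pools 21 of these 50 neighbours were higher in GFP+ cells and 8 were lower (median difference 0.56), against 36.9% and 24.4% of all receptors (median 0.26). In the odor pools 18 were higher and 9 lower (median 0.26), against 36.7% and 27.2% of receptors (median 0.26). The shares lie near those of receptors in general, and the sets around single genes differed.

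Olfr309 stood among depleted receptors. Of its 10 neighbours 6 were lower in GFP+ cells under each stimulus and 1, Olfr1350, was higher (2.06 ± 0.42 and 1.38 ± 0.42 in the vehicle and odor pools, limma adjusted p = 0.00151 and 0.0255). The lowest were Olfr307 (-3.88 ± 0.45 and -3.77 ± 0.45, adjusted p = 3.74e-06 and 5.25e-06) and Olfr291 (-3.83 ± 0.37 and -4.01 ± 0.37, adjusted p = 5e-07 and 2.82e-07). The adjacent Olfr308 differed by -1.37 ± 0.26 and -1.79 ± 0.26, and the adjacent Olfr310 by 0.04 ± 0.33 and 0.36 ± 0.33, which did not pass. The counts of lower neighbours were 6 of 10 under each of the 3 other scalings too.

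Around Olfr536, in contrast, 8 of 10 neighbours were higher in the vehicle and 6 in the odor pools, and none was lower. The highest were Olfr533 (3.93 ± 0.18 and 3.97 ± 0.18, limma adjusted p = 9.43e-11 and 9.18e-11), 2 places away, the adjacent Olfr535 (2.33 ± 0.27 and 1.86 ± 0.27) and Olfr61 (2.23 ± 0.30 and 1.94 ± 0.30). The adjacent Olfr538 was higher by 0.99 ± 0.22 and 0.65 ± 0.22. With receptor medians set equal, 5 of the 10 were called higher in each sort and none was lower. The difference between the surroundings of Olfr536 and of Olfr309 was not tested.

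The other 3 genes had mixed neighbours. Around Olfr481, 4 were higher and 1 lower in the vehicle and 5 and 0 in the odor pools, with the adjacent Olfr480 at 1.14 ± 0.25 and 1.49 ± 0.25 and the adjacent Olfr482 at 2.19 ± 0.24 and 2.15 ± 0.24, both called. Around Olfr110, 4 were higher and 1 lower, then 4 and 2. The adjacent Olfr109 was higher by 0.82 ± 0.26 and 1.03 ± 0.26, and the adjacent Olfr111 differed by -0.61 ± 0.27 and -0.85 ± 0.27, of which the second passed (adjusted p = 0.033). The same cluster held Olfr101, at 3.64 ± 0.26 and 3.40 ± 0.26, and Olfr114, at -2.35 ± 0.37 and -2.67 ± 0.37. Around Olfr1093, 4 were higher and 0 lower, then 2 and 1; the adjacent Olfr141 was higher by 0.94 ± 0.24 and 0.76 ± 0.24 and the adjacent Olfr1090 differed by -0.53 ± 0.22 and -1.02 ± 0.22, the second of which passed (adjusted p = 0.00265). With receptor medians set equal the counts around Olfr1093 became 3 higher and 2 lower, then 2 and 2.

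**Figure D4:**
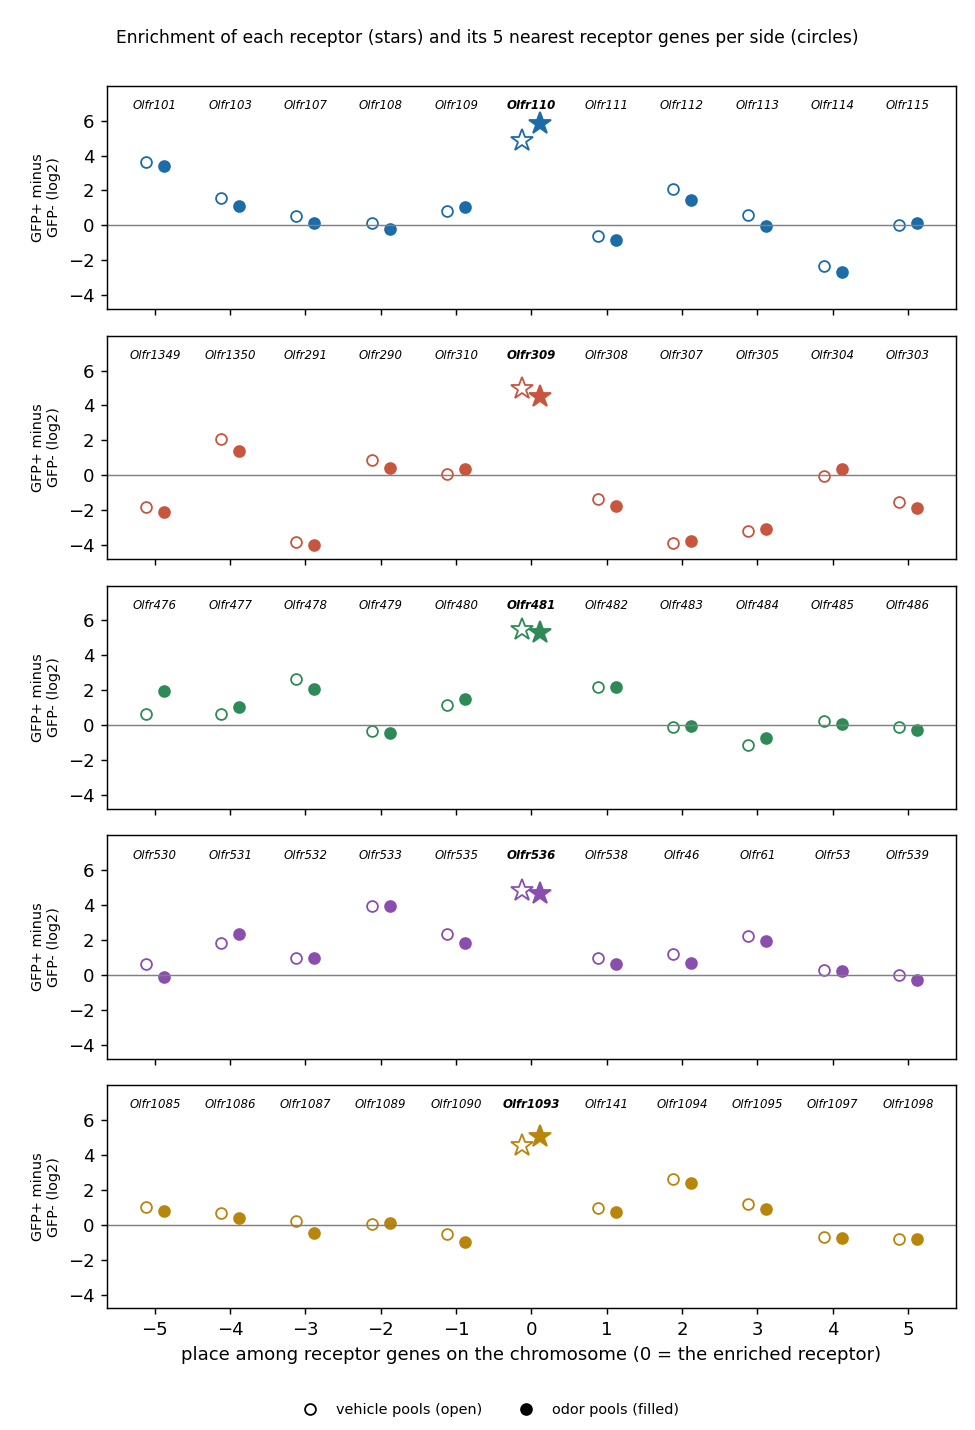
GFP+ minus GFP- log2 difference of each of the 5 receptors (stars) and of the 5 nearest receptor genes on each side in annotation order (circles), open for vehicle and filled for odor pools. Each star lies above all of its neighbours, which reach from -4.01 beside Olfr309 to 3.97 beside Olfr536. The place of the stars follows largely from the choice of the 5 by this same difference.

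Receptors of the same family share more of their protein sequence. The 50 neighbours and the 42 relatives overlap and make up 75 genes, so the 2 descriptions are not separate. Of 42 relatives, 27 were higher and 4 lower in the vehicle pools (median 1.00) and 26 and 3 in the odor pools (median 1.18), beside the shares of all receptors given above. All 4 relatives of Olfr309 were higher in both sorts, Olfr527 (2.67 ± 0.53 and 2.68 ± 0.53), Olfr525 (1.93 ± 0.37 and 1.91 ± 0.37), Olfr531 (1.83 ± 0.36 and 2.34 ± 0.36) and Olfr532 (0.99 ± 0.31 and 0.94 ± 0.31), and 3 of them with receptor medians set equal. Olfr531 and Olfr532 lie beside Olfr536, and none of the 4 is among the depleted neighbours of Olfr309. Of the 6 relatives of Olfr1093, 5 were higher in the vehicle and 4 in the odor pools, Olfr1094 the most in the vehicle pools (2.61 ± 0.23 and 2.42 ± 0.23), and Olfr1102 the most in the odor pools (2.39 ± 0.23 and 2.43 ± 0.23). Olfr536 has 2 relatives, Olfr533, given above, and Olfr530 (0.63 ± 0.22, called higher, and -0.10 ± 0.22). Olfr110 was the only receptor of MOR249 with a probe set.

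The family of Olfr481 is the large one, with 30 others, and it was divided. In the vehicle pools 16 were higher and 4 lower, in the odor pools 17 and 3. With receptor medians set equal these counts were 12 and 4, then 17 and 4, and with array medians set equal 22 and 4, then 18 and 3. Olfr494 (4.35 ± 0.24 and 3.06 ± 0.24), Olfr472 (4.14 ± 0.29 and 3.82 ± 0.29), Olfr490 (3.64 ± 0.45 and 2.99 ± 0.45) and Olfr491 (2.88 ± 0.27 and 4.59 ± 0.27) were high, while Olfr495 (-2.79 ± 0.28 and -3.01 ± 0.28) and Olfr487 (-2.69 ± 0.37 and -3.17 ± 0.37) were low. Whether the probes of such close relatives respond to each other's transcripts was not examined. Of the neighbours and relatives, none passed with the odor in GFP+ cells. The call of 1, Olfr491, in GFP- cells and for the gain depended on the scaling and on the fit. Its odor minus vehicle difference in GFP- cells was -1.40 and its gain 1.71. With the replicate number as a block it passed on both (limma adjusted p = 0.00971 and 0.0289). In the fit with neither block nor scaling it passed on neither (adjusted p = 0.111 and 0.241). With receptor medians set equal and no block it again passed on both (limma adjusted p = 0.00686 and 0.0181). No other neighbour or relative passed in these fits.

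The 5 receptors followed each other closely over the 16 arrays. Pearson's r of log2 signal ran from 0.951 (Olfr309 with Olfr481) to 0.990 (Olfr309 with Olfr536) over the 10 pairs, which share the contrast of GFP+ and GFP- arrays they were chosen for. After group means were removed, r ran from -0.65 (Olfr481 with Olfr536) to 0.70 (Olfr309 with Olfr536), so that within groups some pairs moved together and others apart. These are descriptions over 16 arrays that share pools and scaling.

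By the same measure the receptors most like each gene were Olfr533 for Olfr1093 (r = 0.993), Olfr1037 for Olfr481 (0.982), Olfr1382 for Olfr110 (0.983), and for Olfr309 and Olfr536 each other, followed by Olfr472 (0.990 and 0.988) and Olfr740 (0.986 and 0.987). All of these were higher in GFP+ cells in both sorts. A high r with genes chosen for the contrast of GFP+ and GFP- arrays makes this likely, also for the genes named next. Among genes that are not odorant receptors, Ptprn, a membrane protein of secretory vesicles, was most like Olfr536 (0.985) and Olfr110 (0.979) and was higher by 1.58 and 1.79 in the vehicle and odor pools. Pcp4l1 was most like Olfr1093 (0.965; 1.49 and 1.60), Fxyd2, a regulator of the sodium pump, most like Olfr481 (0.965; 3.32 and 3.05), and Pde1c, a phosphodiesterase of olfactory cilia, most like Olfr309 (0.971; 0.69 and 0.60). Taar5 and Taar8a, trace amine-associated receptors that neurons express in place of an odorant receptor, were also among the 3 most like Olfr481 (0.963) and Olfr110 (0.970). By rank correlation the 3 receptors most like Olfr309 were Olfr527, Olfr525 and Olfr531 (Spearman's rho 0.965, 0.962 and 0.935), all of its own family MOR251, which were singled out after their values were seen. Olfr533 stayed in place 1 for Olfr1093 (0.897), and the receptors named for the other 3 genes were different ones.

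Within groups, the 5 receptors differed in how their arrays deviated by replicate number, which in the labels numbers the pools of each stimulus. Replicate 1 was above its group mean in all 4 groups for Olfr309, by 0.98, 0.29, 0.79 and 0.32 in vehicle GFP-, vehicle GFP+, odor GFP- and odor GFP+, and for Olfr536, by 0.42, 0.18, 0.68 and 0.42. For Olfr481 it was below in all 4, by values of -0.13, -0.54, -1.18 and -0.73. Olfr481 was above its mean in replicate 4 of all groups (0.08, 0.51, 0.71 and 0.54), and Olfr309 and Olfr536 were below their means in replicate 2 of all groups. Olfr110 and Olfr1093 showed no number with a single sign in all 4 groups. Of the 20 combinations of gene and number, 7 had 1 sign in all groups, against 26.3% of such combinations over all receptors. GFP+ and GFP- arrays of a pool share their mice, and vehicle and odor pools of a number share no stated source.

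**Figure D5:**
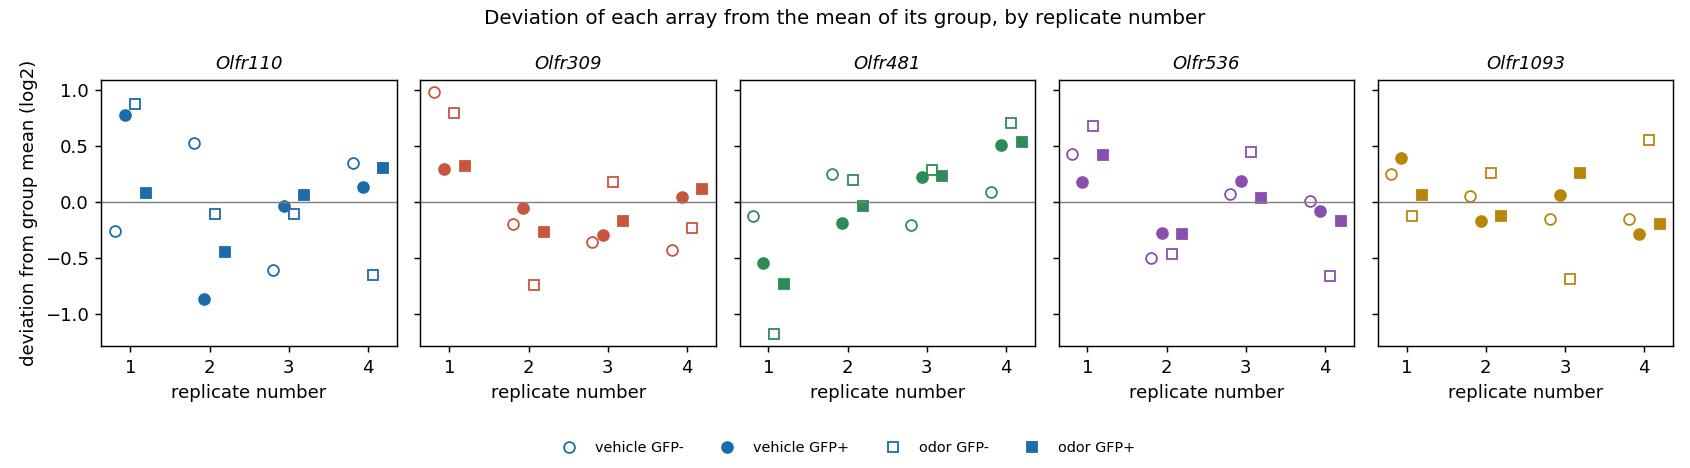
Deviation of each array from the mean of its group in log2 units, by replicate number, for the 5 receptors, with circles for vehicle and squares for odor, open for GFP- and filled for GFP+. Replicate 1 lies above 0 in all groups for Olfr309 and Olfr536 and below 0 in all groups for Olfr481.

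Genes of the transduction pathway named above were measured on the same arrays. Of 18 of them, 2 passed as higher and 1 as lower in the vehicle sort, and 6 and 1 in the odor sort (median differences 0.13 and 0.15, against 0.11 and 0.13 over all probe sets). Pde1c (0.69 ± 0.10 and 0.60 ± 0.10) and Ano2 (0.36 ± 0.11 and 0.48 ± 0.11) were higher in both, and the receptor kinase gene Grk3 was lower (-0.81 ± 0.16 in each); with array medians set equal 16 and 17 were higher, and with receptor medians equal 1 and 3. With the odor, Camk2n1, an inhibitor of a calmodulin-dependent kinase, was higher in GFP+ cells by 2.68 ± 0.28 (limma adjusted p = 0.000165). Of 16 genes of receptor trafficking and choice, 1 was higher and 2 lower in the vehicle pools and 0 and 3 in the odor pools, with Lbr, a nuclear envelope protein, at -1.89 ± 0.23 in both. With array medians set equal this turned to 11 higher and 1 lower and to 8 and 1. Of 9 slow activity-dependent genes, 5 were higher in each sort, 7 in each with array medians set equal, and 2 (with 1 lower) and 5 with receptor medians equal. With the odor Pcdh10, an adhesion protein, was higher by 3.99 ± 0.38 in GFP+ and 3.28 ± 0.38 in GFP- cells and Sema7a, an axonal signal, by 1.39 ± 0.15 and 0.97 ± 0.15 (adjusted p from 0.000122 to 0.0225).

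Markers of other cells moved with the sort. All 9 neutrophil genes were lower in GFP+ cells in both sorts (medians -7.92 and -7.81), with a log2 summed signal of 18.57 to 19.50 on GFP- and 10.29 to 12.27 on GFP+ arrays, and 1 of the 9 had a GFP+ mean under the negative control median. Of 10 markers of immature neurons 7 and 6 were lower, among them Dpysl3 (-3.38 ± 0.38 and -2.90 ± 0.38), and none higher, with summed signals of 16.78 to 17.27 on GFP- and 16.47 to 16.72 on GFP+ arrays. Of 7 cycling and basal cell genes 5 were lower in both, of 10 sustentacular genes 2 and 4, and of 8 macrophage genes 4 in both. With array medians set equal, 5 lower and 2 higher, then 4 and 1, of the immature markers passed in the vehicle and odor sorts, 5 and 1, then 5 and 2, of the cycling and basal, 2 and 1 in both of the sustentacular, and 2 and 1, then 4 and 1, of the macrophage genes. The 9 neutrophil genes were lower under that scaling too. Of 10 mature neuron markers 1 and 2 were higher, with summed signals of 20.56 to 20.67 on GFP- and 20.57 to 20.77 on GFP+ arrays; with array medians set equal all 10 were higher. The part of these markers in the enrichment of the 5 receptors was not tested. None of the neutrophil, immature or mature neuron markers passed in a comparison of odor with vehicle.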

How the data were processed

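RNA of 16 sorted samples was measured on Affymetrix Clariom S mouse arrays. The deposited values are log2 signals per probe set, made with Affymetrix Expression Console per the submitters' processing notes; no version, summarization, normalization or genome build is stated there. No further scaling was applied. Of 28846 features, 22206 outside the control classes were tested, 19572 of them with 1 gene symbol and 2634 with none. The 5222 negative control entries served as a reference for low signal. The number of arrays limits the precision.

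Group means of all 16 arrays were fitted with limma 3.58.1 in R 4.3.3 (lmFit, eBayes, total degrees of freedom 16.66), two-sided, with Benjamini-Hochberg adjustment over the 22206 probe sets and a threshold of 0.05; the script was tested on simulated data. Values are ± SE from this fit unless SD is stated. GFP+ and GFP- arrays of a pool come from the same mice; their deviations from group means correlated with r from 0.0119 to 0.224. Arrays of a replicate number correlated with r from 0.186 to 0.290 in GFP- cells, every pair over 0.1, and from 0.0311 to 0.256 in GFP+ cells. Arrays of unlike number were not compared, so whether the number marks a pairing was not tested. The values given come from the fit without a block, and blocks were run as alternatives, beside scalings, filters, array weights, a variance trend and leaving out each array.

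The 5 genes and the 9 gene lists were chosen with earlier results of these data known. Named besides the 5 were S100a5 and Omp, per gene the 3 most correlated receptors and other genes, the next receptors in rank, adjacent neighbours, and up to 4 called genes per list; further neighbours and relatives, Ano2, Olfr31 and Olfr328 were named after their values were seen. Relatives by protein identity were replaced by receptor families of the RefSeq annotation, since no protein sequences were used here; all 1080 receptors matched it and 1054 had a family.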

Additional observations from a re-analysis of the deposited data

Results flagged for a closer look

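Among 30 groups of 4 values tested (the 5 receptors in each group of arrays, and their differences within pools), 1 had an end value set apart by more than Dixon's 95% limit. It was the GFP- array of vehicle replicate 1 for Olfr309, at 11.09, beside 9.67 to 9.91 on the other arrays of the group, with a gap of 0.831 of the range. Chance gives about 1 such group in 20. The GFP- array of odor replicate 1 was also the highest of its group, at 11.43.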

How the results depend on the processing

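Under 25 alternatives (24 for the gain), 16 of which left out an array, 0 of the 5 receptors passed with the odor in GFP+ cells, in GFP- cells or for the gain, where adjusted p-values ran from 0.7 to 1. The pool as a block, a pairing of the same mice, and the replicate number as a block changed no call of the 5 in these comparisons; the pool block cannot be fitted to odor within a cell fraction as a fixed term and was random there. Differences near 0 changed sign, and the cause was not tested. Odor minus vehicle in GFP+ cells became -0.13 for Olfr481 with array weights, and -0.0066 with array medians set equal and -0.0217 with array weights for Olfr536. The gain of Olfr481 became 0.0329 with receptor medians set equal. With an array left out, values ranged in GFP+ cells from -0.0371 to 0.17 (Olfr309), -0.11 to 0.32 (Olfr481) and -0.13 to 0.10 (Olfr536), in GFP- cells from -0.0294 to 0.60 (Olfr481) and -0.0327 to 0.41 (Olfr536), and for the gain from -0.53 to 0.11 (Olfr481) and -0.41 to 0.039 (Olfr536).

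Of 75 neighbours and relatives, 0 passed with the odor in GFP- cells, but 1 (Olfr491) with receptor medians set equal, with the replicate number as a block or with array weights, and 0 to 1 with an array left out (1 without vehicle GFP+ replicate 1 or 2). For the gain, 1 (again Olfr491) passed with receptor medians set equal and with the replicate number as a block.

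Counts over all probe sets moved more. The sort of the odor pools gave 5167 calls, against 15107 with array medians and 3279 with receptor medians set equal, and that of the vehicle pools 4691 against 15011. Odor in GFP+ cells gave 17, against 6 with only the arrays compared and 8 to 10 without odor GFP+ replicate 1 or 2 or vehicle GFP+ replicate 2 or 4 (receptors 9, against 3 with only the arrays compared and 5 without odor GFP+ replicate 1 or 2). Odor in GFP- cells gave 11, against 19 with array weights, 17 with receptor medians set equal and 7 without GFP- replicate 2 or 4 of either stimulus (receptors 9, then 16 and 15). The gain gave 14, against 22 with receptor medians set equal. Leaving out dim probe sets kept 14866. Relatives by protein identity, and the choice of its denominator, were not run. GFP- signals of Olfr481 and Olfr1093 near the negative controls limit the size of their folds.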
